A study of Mus musculus with 2 samples.

Results

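The glycolysis and hypoxia response genes are 34 mouse genes, taken by name from a fixed list, of the 32285 genes counted in these data. Of these, 10 take glucose to triose phosphate (*Slc2a1*, *Hk1*, *Hk2*, *Gpi1*, *Pfkl*, *Pfkp*, *Pfkm*, *Aldoa*, *Aldoc*, *Tpi1*), 5 carry out the later steps (*Gapdh*, *Pgk1*, *Pgam1*, *Eno1*, *Pkm*) and 4 handle pyruvate and lactate (*Ldha*, *Pdk1*, *Slc16a1*, *Slc16a3*). A further 12 belong to the response to low oxygen (*Bnip3*, *Bnip3l*, *Vegfa*, *Adm*, *Ndrg1*, *P4ha1*, *P4ha2*, *Ankrd37*, *Car9*, *Mif*, *Hilpda*, *Ddit4*) and 3 sense oxygen or carry the signal (*Egln1*, *Egln3*, *Hif1a*). All 34 were found. The list was drawn up with earlier results of these data known, so counts of members beside all genes are descriptions only. C57BL/6 mice homozygous for the wild type *Ptpn22* allele (PEP-WT), or for a CRISPR/Cas9-made pro-autoimmune allele of this phosphatase gene (PEP-619WW), were infected intravenously with LCMV-cl13, a persisting strain of lymphocytic choriomeningitis virus. Spleens were taken 8 days later, the cells of 4 to 5 mice per genotype were pooled, and live CD45+ cells were sorted for 10x Genomics 3' single-cell sequencing. The study describes both genotypes as infected, so no group known to be uninfected was compared. Each genotype was deposited as 2 runs, called run 1 and run 2 here. Run 2 held 9539 PEP-WT barcodes with a median of 1709 genes, and 11029 PEP-619WW barcodes with a median of 1477 genes. Both pairs of values equal those in the study's description of its spleen libraries. The cells of run 2 do not match that description in PEP-WT, where hardly any B or CD4 T barcodes were found, whereas run 1 held many lymphocytes of the kinds that a spleen has. Which run the described spleens gave was therefore not settled, nor whether the described infection holds for both runs.

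Glycolysis splits glucose into pyruvate, and lactate dehydrogenase can reduce pyruvate to lactate, which restores NAD+ so that the pathway can go on without oxygen. When oxygen is plentiful, the EGLN prolyl hydroxylases mark the transcription factor HIF-1α for destruction. When oxygen is short, HIF-1α persists and binds a short core sequence near genes for glucose uptake, glycolysis, blood vessel growth and mitophagy. Activated macrophages, neutrophils and effector T cells also raise glycolysis when oxygen is not short.

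The core letters of that binding site, ACGTG, were looked for on both strands in RefSeq windows of GRCm38.p6. A window runs from 250 bases before an annotated start of a gene to 50 after it, and a gene can have several. A window was found for 32 of the 34 members, and *Ndrg1* and *Bnip3l* had none. The letters were present in at least 1 window of 25 of these 32 genes, or 78.1%, and in 21.8% of all 27025 genes with a window. Counted by window, they were in 27 of 46 (58.7%) for the members and in 19.6% of all 32851. ACGTG is also part of the longer E-box CACGTG, which other factors bind, and it then matches on both strands, as in *Bnip3*. The background is every gene with a window, expressed here or not, and was not matched for base content. A match is a description of the letters and not a binding site. The windows of 5 of the members with large differences between the runs are given with that of *Ddit4*, which stood lower in macrophages. Others with large differences, among them *Adm*, *P4ha2* and *Vegfa*, are not shown. The windows shown for *Hilpda* and *Ankrd37* are set at a start inside the gene and not at its outermost start. Any other windows of these genes are not shown. Capitals mark ACGTG or, on the other strand, CACGT.
Egln3, chr12:54203825-54204124, minus strand: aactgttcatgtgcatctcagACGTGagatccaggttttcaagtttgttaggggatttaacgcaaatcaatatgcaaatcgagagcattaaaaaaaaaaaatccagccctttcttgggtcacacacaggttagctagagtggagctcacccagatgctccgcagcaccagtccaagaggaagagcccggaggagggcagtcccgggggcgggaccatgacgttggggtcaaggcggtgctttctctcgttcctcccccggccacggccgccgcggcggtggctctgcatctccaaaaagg
Bnip3, chr7:138909457-138909756, minus strand: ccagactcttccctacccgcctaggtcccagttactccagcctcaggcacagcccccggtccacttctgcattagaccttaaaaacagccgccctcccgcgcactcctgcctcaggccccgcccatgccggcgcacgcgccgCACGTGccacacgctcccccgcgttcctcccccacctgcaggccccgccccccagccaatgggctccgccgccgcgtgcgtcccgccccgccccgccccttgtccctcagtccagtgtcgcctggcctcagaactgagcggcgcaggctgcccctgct
Hilpda, chr6:29272376-29272675, plus strand: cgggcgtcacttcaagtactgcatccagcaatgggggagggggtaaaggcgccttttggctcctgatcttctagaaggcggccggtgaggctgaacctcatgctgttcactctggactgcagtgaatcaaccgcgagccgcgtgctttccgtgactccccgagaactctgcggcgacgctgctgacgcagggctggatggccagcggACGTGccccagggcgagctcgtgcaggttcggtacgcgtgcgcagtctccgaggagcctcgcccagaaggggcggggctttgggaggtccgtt
Slc2a1, chr4:119108495-119108794, plus strand: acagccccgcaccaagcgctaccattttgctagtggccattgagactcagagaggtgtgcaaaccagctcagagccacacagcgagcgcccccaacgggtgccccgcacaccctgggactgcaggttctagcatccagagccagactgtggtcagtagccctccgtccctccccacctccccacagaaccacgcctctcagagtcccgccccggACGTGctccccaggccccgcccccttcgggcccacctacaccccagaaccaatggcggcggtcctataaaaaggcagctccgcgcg
Ankrd37, chr8:45999801-46000100, minus strand: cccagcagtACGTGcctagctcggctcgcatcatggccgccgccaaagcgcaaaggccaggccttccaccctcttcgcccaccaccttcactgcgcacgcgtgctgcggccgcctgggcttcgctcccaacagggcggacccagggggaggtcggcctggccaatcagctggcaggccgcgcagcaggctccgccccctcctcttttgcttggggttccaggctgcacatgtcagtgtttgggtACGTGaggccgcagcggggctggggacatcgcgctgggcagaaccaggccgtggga
Ddit4, chr10:59951721-59952020, minus strand: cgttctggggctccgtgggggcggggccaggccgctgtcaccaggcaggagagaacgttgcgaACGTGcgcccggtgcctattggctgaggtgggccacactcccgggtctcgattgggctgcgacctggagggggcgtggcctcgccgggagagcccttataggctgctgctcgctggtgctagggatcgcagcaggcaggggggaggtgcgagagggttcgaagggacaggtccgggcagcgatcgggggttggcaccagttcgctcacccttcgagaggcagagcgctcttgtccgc
All 6 windows held the letters. They were picked by the run differences of their genes, so the display cannot tell whether the letters go with those differences.

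The 4 libraries held 8576 to 14821 barcodes and 55504449 to 77916082 unique molecular identifiers (UMIs, each 1 captured transcript), with 2832 to 4837 UMIs in the median barcode. Each genotype is 1 library per run, which leaves the spread between mice unmeasured, and no test was made. Levels are the UMIs of a gene summed over a cell class, scaled to a common class total of 1e+06 (CPM), with exact 95% intervals that cover counting error only. The barcodes were assigned to 6 classes by marker genes: CD8 T, CD4 T, B, C1q macrophage, monocyte and neutrophil. The labels name liver, a human T cell line and cells from a tumor, whereas the protocol text describes splenocytes. Hepatocyte markers were at or near 0: at most 1 of 4 genes had any UMI in a library, and the sum was at most 0.0284 CPM. Both runs differed in make-up. Run 2 held 274 PEP-WT and 27 PEP-619WW barcodes with UMIs of at least 3 melanocyte genes, and run 1 held 0 in both. PEP-WT barcodes of run 2 were mostly C1q macrophages (61.2%), with 28 CD8 T, 12 CD4 T and 2 B barcodes. In run 1 the B class was the largest, with a share of 46.8% in PEP-WT and 36.7% in PEP-619WW. Run, cell source and handling cannot be told apart, and the sources do not say whether both came from the same tissue. Pairs of libraries shared 19 to 49 barcode sequences.

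The members differed far more often between the runs than between the genotypes, as the counts show. In both genotypes and in all 3 myeloid classes, most members were higher in run 2 than in run 1, among them *Egln3*, *Bnip3*, *Hilpda*, *Slc2a1* and *Ankrd37*. A gene was called past the fold when its CPM differed at least 1.5-fold and both libraries together held at least 100 UMIs. In PEP-WT C1q macrophages, 30 of 34 members were higher in run 2 and 1 was lower, where 25.0% of all genes were higher and 20.3% lower. In PEP-WT monocytes it was 26 of 28 members with 100 UMIs (16.1% of all genes), and in neutrophils 27 of 28 (17.1%). There, 0 members were lower, against 29.4% and 27.9% of all genes. In PEP-619WW, 29 of 32 members were higher in macrophages (27.4% of all genes), 26 of 31 in monocytes (25.9%) and 27 of 28 in neutrophils (29.6%), with 1, 0 and 0 lower against 15.1%, 14.8% and 17.5% of all genes. The members' median log2 ratio, run 2 over run 1, lay between 1.71 and 2.17 in these 6 comparisons, and that of all genes between -0.18 and 0.19. Of 28 members with 100 UMIs in all 3 myeloid classes of PEP-WT, 24 were higher in every one (10.9% of all genes), and of 27 with 100 UMIs in all 6 classes of PEP-619WW, 16 were (7.31%). Over all 6 classes, 133 of 164 member and class pairs were higher in PEP-WT and 1 lower, where 20.7% and 20.4% of all gene and class pairs were. In the classes with at least 50 barcodes it was 83 of 90 higher and 1 lower, where 20.2% and 25.2% of all pairs were. In PEP-619WW it was 146 of 176 higher and 1 lower, where 24.9% and 13.1% were. The map of run ratios shows the members by role.

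**Figure D1:**
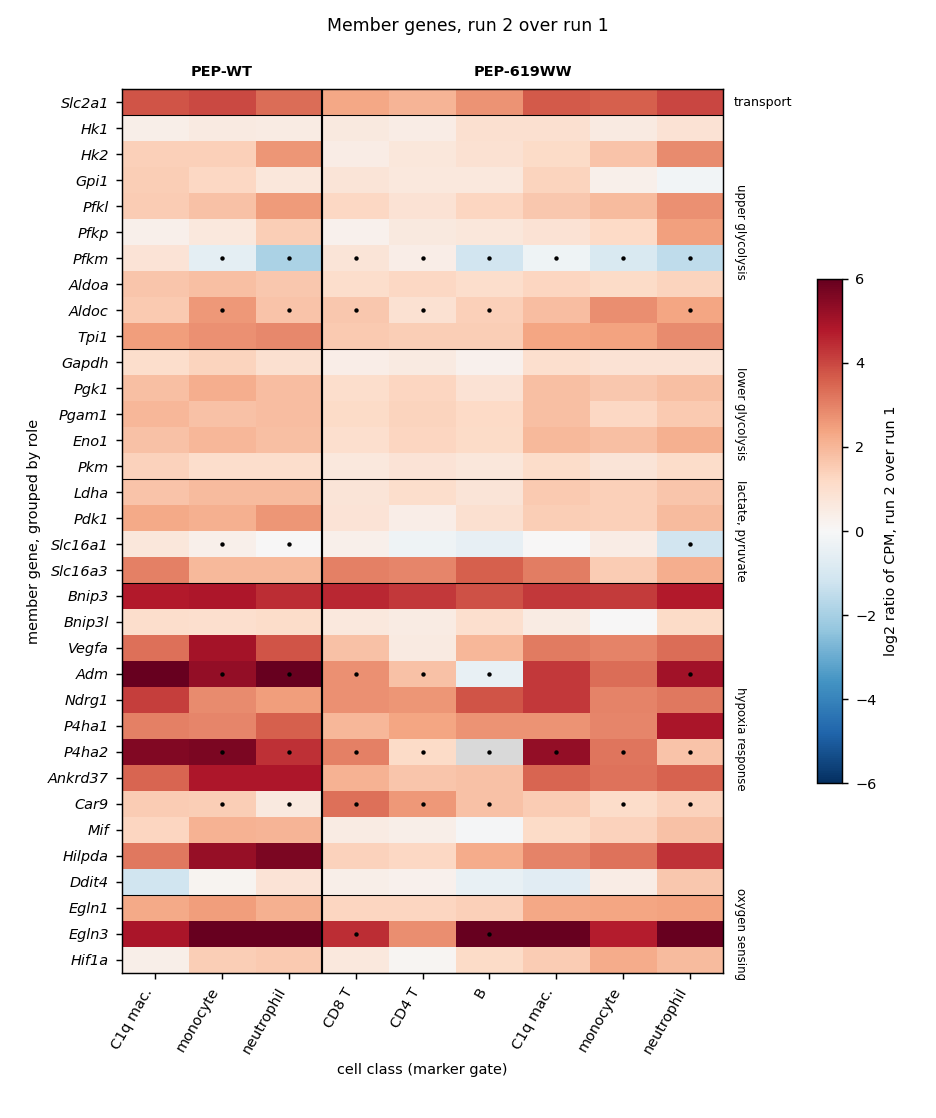
Log2 ratio of CPM, run 2 over run 1, for the 34 members (rows, grouped by role) in classes with at least 50 barcodes in both runs (columns). Red is higher in run 2, the color scale stops at 6, a dot marks under 100 UMIs over both libraries and gray marks no ratio. Most rows are red in every column, and *Ddit4* is blue in the C1q macrophages of both genotypes (-1.21 and -0.70).

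*Egln3*, a prolyl hydroxylase that is itself induced by HIF-1α, had the widest range. In neutrophils it stood at 1.45 CPM in PEP-WT and 3.47 CPM in PEP-619WW of run 1, and at 151 and 248 CPM in run 2. The run 2 values lay clear of those of run 1, with log2 ratios of 6.70 (95% interval 5.71 to 7.93) and 6.16 (5.51 to 6.90). In C1q macrophages it rose from 0.879 and 0.857 CPM to 26.0 and 55.3 CPM. *Egln1*, the main oxygen-sensing hydroxylase, moved less: in macrophages it stood at 23.7 and 26.3 CPM in run 1 and at 115 and 133 CPM in run 2. *Hif1a*, which encodes the factor itself and is mainly controlled as a protein, stood at 85.3 and 85.5 CPM in run 1 macrophages and at 110 and 243 CPM in run 2. Its run ratio was past the fold in PEP-619WW macrophages (log2 1.51) and not in PEP-WT (0.36).

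*Hilpda*, a lipid droplet protein that slows the breakdown of stored fat, was at 21.6 CPM (17.9 to 25.8) in PEP-WT neutrophils and 58.1 CPM (51.9 to 64.8) in PEP-619WW neutrophils of run 1. In run 2 it was at 1095 (1050 to 1140) and 1175 CPM (1142 to 1210). The runs did not overlap, and the log2 ratios were 5.67 and 4.34. With barcodes of 1 gate only, *Hilpda* in run 2 neutrophils was at 2051 CPM in PEP-WT and 1653 CPM in PEP-619WW, so that the order of the genotypes turned, against 15.6 and 80.5 CPM in run 1. In monocytes *Hilpda* went from 15.4 and 38.0 CPM to 581 and 360 CPM. *Bnip3*, which directs mitochondria to autophagy, rose from 6.59 and 9.30 CPM in run 1 macrophages to 181 and 177 CPM in run 2. Its ratio varied little over the myeloid classes, between log2 4.22 and 4.85. Its relative *Bnip3l* differed by a log2 ratio of 1.01 to 1.08 in PEP-WT myeloid classes, and in PEP-619WW it was past the fold in neutrophils (1.16) but not in macrophages (0.49) or monocytes (0.03).

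The other hypoxia response genes followed the same direction with 1 exception. *Ndrg1*, a stress-induced gene, rose from 8.79 and 8.57 CPM to 158 and 164 CPM in macrophages. *Ankrd37*, a small ankyrin repeat gene, rose from 5.26 and 12.4 CPM to 153 and 146 CPM in neutrophils. *Vegfa*, the growth factor for blood vessels, rose from 4.07 and 8.20 CPM to 40.0 and 70.1 CPM in macrophages. The genes *P4ha1* and *P4ha2* encode collagen prolyl hydroxylase subunits, and *P4ha1* rose from 15.0 and 8.58 CPM to 183 and 259 CPM in neutrophils. *Adm*, a vasodilator peptide, had 0 UMIs in the macrophages of run 1 and 1324 and 112 UMIs in those of run 2. Against a floor of 3 UMIs per library this is at least 68.9-fold higher in PEP-WT and at least 19.2-fold higher in PEP-619WW. *P4ha2* also had 0 UMIs in PEP-WT macrophages of run 1, and its 908 UMIs in run 2 are at least 47.3-fold higher against the same floor. *Car9*, a surface carbonic anhydrase, was low throughout, from 2.33 to 9.71 CPM in macrophages. *Mif*, a cytokine with many roles, went from 374 and 347 CPM to 928 and 777 CPM in macrophages. *Ddit4*, a stress-induced inhibitor of mTORC1, was the exception: it fell from 25.5 to 11.0 CPM in PEP-WT macrophages and from 43.3 to 26.7 CPM in PEP-619WW macrophages. In neutrophils *Ddit4* was higher in run 2, at 37.4 and 64.7 CPM against 21.4 and 21.2 CPM.

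Glucose entry and most of the glycolytic enzymes were also higher in run 2. *Slc2a1*, the glucose transporter GLUT1, stood at 8.68 CPM (6.87 to 10.8) and 11.5 CPM (9.30 to 14.1) in run 1 macrophages and at 117 and 146 CPM in run 2. Its log2 ratio over the myeloid classes ran from 3.36 to 4.02. *Tpi1*, which interconverts the triose phosphates, had the largest ratio of the glycolytic enzymes in macrophages (log2 2.50 and 2.38), and went from 131 and 134 CPM to 742 and 702 CPM in macrophages. *Aldoa*, aldolase A, rose from 305 and 321 CPM to 980 and 782 CPM. *Gapdh*, which oxidizes glyceraldehyde 3-phosphate, rose from 1200 and 1120 CPM to 2512 and 2231 CPM, a log2 ratio of 1.07 and 0.99. *Gapdh* is often used as a reference gene, and here it was past the fold in every myeloid class of both genotypes. *Pgk1*, *Pgam1*, *Eno1* and *Pkm* were past the fold in the same 6 comparisons, with log2 ratios from 0.78 (*Pkm*, PEP-619WW monocytes) to 2.17 (*Pgk1*, PEP-WT monocytes).

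The isozymes of a step did not move alike. Of the hexokinases, *Hk2*, the inducible form, rose from 43.7 and 36.9 CPM to 272 and 265 CPM in neutrophils, and *Hk1*, the housekeeping form, went from 39.0 and 37.8 CPM to 54.2 and 69.8 CPM. *Hk1* was past the fold in 0 of 3 PEP-WT myeloid classes, where its log2 ratios were 0.35 to 0.55. In PEP-619WW it was past the fold in macrophages (0.97), neutrophils (0.88) and B barcodes (0.95), and not in monocytes (0.54), CD8 T (0.58) or CD4 T (0.43). Of the phosphofructokinase genes, *Pfkl* rose in all 6 myeloid comparisons, *Pfkp* did not pass the fold in PEP-WT macrophages (log2 0.30), and *Pfkm*, the muscle form, stood at 3.34 CPM or less in every myeloid class. *Gpi1*, the isomerase that acts between hexokinase and phosphofructokinase, rose from 158 and 176 CPM to 436 and 447 CPM in macrophages. In PEP-619WW neutrophils *Gpi1* stood at 427 CPM in run 1 and 386 CPM in run 2, and was not past the fold there or in PEP-619WW monocytes (log2 0.29). *Aldoc*, a minor aldolase, was at 1.98 and 2.45 CPM in run 1 macrophages and at 5.87 and 8.89 CPM in run 2.

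At the end of the pathway, *Ldha*, the lactate dehydrogenase subunit that favors lactate, rose from 298 CPM (287 to 310) and 293 CPM (281 to 305) to 986 and 865 CPM in macrophages. *Pdk1*, which inhibits pyruvate dehydrogenase and so slows the use of pyruvate in the mitochondrion, rose from 10.4 and 15.4 CPM to 51.1 and 42.7 CPM. The lactate carriers parted: *Slc16a3* (MCT4), the export form, rose from 12.6 and 17.9 CPM to 101 and 151 CPM in macrophages. *Slc16a1* (MCT1) stood at 8.90 and 9.30 CPM in run 1 and at 14.1 and 9.39 CPM in run 2, and was past the fold there in PEP-WT only. The plot of 6 members by class shows the spread.

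**Figure D2:**
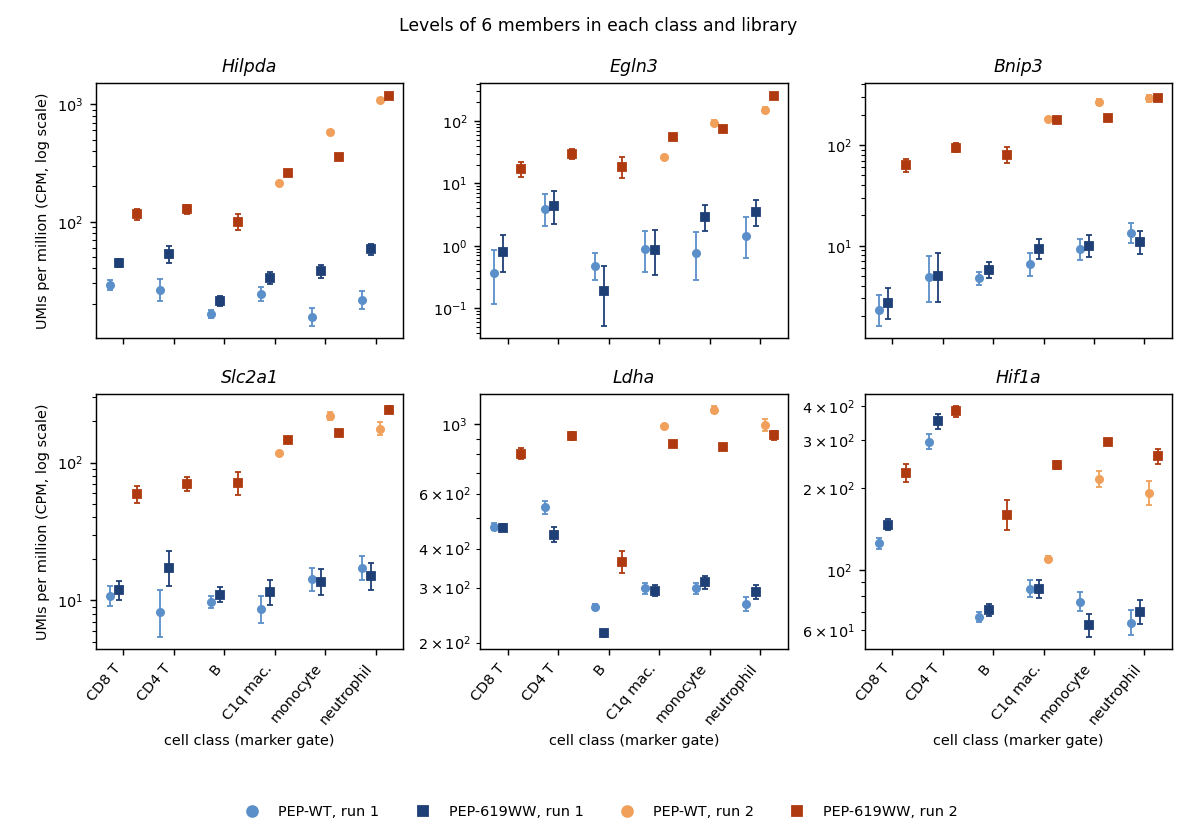
CPM on a log axis of 6 members in each class (x axis) and library (color and symbol), with exact 95% Poisson intervals. Classes under 50 barcodes are left out, so PEP-WT has no lymphocyte points in run 2. For *Hilpda*, *Egln3*, *Bnip3* and *Slc2a1* every run 2 point lies above every run 1 point of its class, and *Hif1a* is highest in CD4 T barcodes of the 3 libraries that have them, at 296 to 382 CPM.

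The myeloid classes of run 2 differed from those of run 1 in other markers as well. The summed macrophage markers (*C1qc*, *Csf1r*, *Adgre1*, *Mrc1*, *Apoe*) stood at 1720 and 2748 CPM in the C1q macrophages of run 1 and at 8161 and 5598 CPM in those of run 2. The run 1 macrophage class held more monocyte marker UMIs (5476 and 5879 CPM) and plasma cell marker UMIs (7005 and 6828 CPM) than macrophage marker UMIs. These sums were high across run 1: over all its barcodes, monocyte markers stood at 4049 and 3943 CPM and plasma cell markers at 4797 and 6526 CPM. The sums cover different gene lists, and *Csf1r* is in both the monocyte and the macrophage list. In run 2 the macrophage class had monocyte markers at 915 and 3679 CPM and plasma cell markers at 118 and 191 CPM. Platelet markers (*Pf4*, *Ppbp*), which macrophages can also express, stood at 87.0 and 16.5 CPM in run 1 macrophages and at 2740 and 1997 CPM in run 2. Melanocyte markers stood at 0.659 and 0.857 CPM in run 1 macrophages, where 5 and 4 of 6 genes were at 0, and at 134 and 22.9 CPM in run 2. The neutrophil markers went the other way, from 9627 and 16261 CPM in the neutrophils of run 1 to 2286 and 2167 CPM in run 2. The macrophage markers in this class rose from 537 and 795 CPM in run 1 to 4450 and 1741 CPM in run 2, so in PEP-WT of run 2 the neutrophil class held more macrophage than neutrophil marker UMIs. In PEP-619WW of run 2 it held more monocyte marker UMIs (2749 CPM) than neutrophil marker UMIs. The monocyte class of run 1 had neutrophil markers at 5020 and 11473 CPM against monocyte markers at 8146 and 6958 CPM, so in PEP-619WW the former were higher. In run 2 it had macrophage markers at 3243 and 2453 CPM against monocyte markers at 2974 and 5051 CPM, so in PEP-WT the former were higher. The values of a class are thus those of its gate, and the names macrophage, monocyte and neutrophil stand for the gates and not for pure cell types. Of the run 1 myeloid barcodes, 46.6% to 68.4% also met another gate. The part of these differences in the run ratios of the members was not tested. In sums over a class, fewer expressing cells and less RNA per cell cannot be told apart.

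Shares of barcodes at equal depth also differed between the runs. With each barcode thinned to 1000 UMIs, *Hilpda* was found in 2.32% (exact 95% interval 1.38 to 3.64) and 6.20% (4.63 to 8.09) of the neutrophil barcodes of run 1. In run 2 it was found in 47.7% (43.2 to 52.2) and 40.7% (37.5 to 44.0). The B class, taken as the background, had *Hilpda* in 1.58% and 2.21% of barcodes in run 1 and in 4.76% of PEP-619WW barcodes in run 2. Without thinning, the neutrophil shares were 9.43% and 20.6% in run 1 and 55.3% and 49.6% in run 2. Median depths were 3482 and 3664 UMIs for neutrophils in run 1, 1612.5 and 1973 UMIs in run 2, and 1867 to 3495.5 UMIs for these B classes, and 30 to 165 neutrophil barcodes were too shallow to thin. *Bnip3* was found in 1.61% and 1.53% of thinned run 1 macrophages and in 15.3% and 16.5% of those of run 2. The B class had *Bnip3* in 0.614% and 0.617% of barcodes in run 1 and in 4.76% of PEP-619WW barcodes in run 2. PEP-WT of run 2, with 2 B barcodes, had no such background.

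In lymphocytes only PEP-619WW had enough barcodes in run 2. There, 21 of 28 members were higher in CD8 T barcodes (17.5% of all genes), 19 of 29 in CD4 T barcodes (19.5%) and 24 of 28 in B barcodes (28.6%). In each, 0 were lower, against 9.18%, 7.83% and 13.8% of all genes. *Bnip3* had the largest ratio of the members with 100 UMIs in all 3 classes, from 2.71, 5.01 and 5.72 CPM in run 1 to 62.7, 93.8 and 80.0 CPM in run 2. *Slc16a3* went from 7.40, 11.1 and 4.46 CPM to 60.1, 85.0 and 53.3 CPM. *Hilpda* went from 44.6, 53.0 and 21.1 CPM to 116, 127 and 100 CPM. Myeloid transcripts were present in the same barcodes: *Lyz2*, the myeloid lysozyme, stood at 20.8%, 27.7% and 43.8% of its macrophage level in the CD8 T, CD4 T and B classes, and the summed C1q genes at 12.5%, 15.0% and 17.6%. *Hilpda* stood at 44.7%, 49.3% and 38.8% of its macrophage level, *Bnip3* at 35.4%, 53.1% and 45.2%, and *Ldha* at 93.0%, 106% and 41.9%. Of these barcodes, 27.2%, 37.4% and 15.1% also met another gate.

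Barcodes that met more than 1 gate were then left out. Without them, 14 of 25 members with 100 UMIs were higher in CD8 T barcodes (13.1% of all genes), 16 of 26 in CD4 T barcodes (17.2%) and 12 of 25 in B barcodes (29.0%). In these classes 0, 0 and 1 were lower, against 10.3%, 7.76% and 15.8% of all genes. *Bnip3* stood at 26.9 CPM in the remaining CD8 T barcodes of run 2 and 1.83 CPM in run 1, a log2 ratio of 3.88. In B barcodes *Lyz2* dropped from 2945 to 198 CPM, *Bnip3* stood at 29.7 CPM against 5.84 CPM in run 1, and *Ldha* at 156 CPM against 182 CPM. The ratio of *Ldha* in B barcodes thus turned from log2 0.76 to -0.22, and those of *Hk2*, *Pgk1*, *Pgam1*, *Pkm* and *Vegfa* also turned below 0. In CD4 T barcodes *Ldha* kept a log2 ratio of 0.97, and in CD8 T barcodes it dropped from 0.78 to 0.31. PEP-WT lymphocytes of run 2 rest on 28, 12 and 2 barcodes. There, 17 of 26 members were higher in CD8 T (19.5% of all genes), 15 of 20 in CD4 T (16.0%) and 18 of 28 in B barcodes (25.0%). Of these members, 0 were lower, against 21.1%, 26.7% and 5.05% of all genes.

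Further genes of both pathways and of steps next to them were counted in the same way. Of 25 further hypoxia genes, those with 100 UMIs were higher in run 2 in 15 of 21, 12 of 17 and 10 of 16 cases in PEP-WT macrophages, monocytes and neutrophils, with 0, 0 and 1 lower. In PEP-619WW it was 14 of 18, 15 of 18 and 13 of 15, with 0 lower. *Ero1l*, an oxidase of disulfide formation, had log2 ratios of 2.40 to 3.79 in these 6 comparisons. *Fam162a*, a mitochondrial protein, had 1.90 to 2.91. The list of 28 further glycolysis genes also holds *G6pdx*, *Pgd*, *Tkt* and *Taldo1* of the pentose phosphate pathway. It holds genes of mitochondrial pyruvate use as well, such as *Mpc1* and *Pdha1*, so its counts do not describe glycolysis alone. Of the 28, 4 of 19, 2 of 17 and 1 of 14 with 100 UMIs were higher in PEP-WT, and 6, 9 and 5 were lower. Of all genes in these classes, 25.0%, 16.1% and 17.1% were higher and 20.3%, 29.4% and 27.9% lower. In PEP-619WW, 4 of 20, 2 of 19 and 1 of 14 were higher, and 6, 6 and 7 lower, where 27.4%, 25.9% and 29.6% of all genes were higher and 15.1%, 14.8% and 17.5% lower. *Pfkfb3*, which makes the activator of phosphofructokinase, was higher in all 6, with log2 ratios of 1.90 to 3.37. *G6pdx*, the entry enzyme of the pentose phosphate pathway, was lower in monocytes (log2 -1.73 and -1.13) and neutrophils (-1.83 and -1.46).

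The classes were also ordered by the level of each member, with all genes of at least 100 UMIs counted beside them. In run 1, CD4 T barcodes were highest for 15 of 31 such members in PEP-WT (29.1% of all genes) and for 14 of 30 in PEP-619WW (29.2%). The interval lay clear of the next class for 8 (3.71% of all genes) and 4 of them (4.54%). *Hif1a* was highest in CD4 T barcodes of run 1, at 296 and 352 CPM against 125 and 147 CPM in CD8 T barcodes, the next class. *Slc16a3* was highest in neutrophils, at 60.4 and 66.3 CPM, and lowest in B barcodes, at 3.68 and 4.46 CPM. Its neutrophil and monocyte intervals overlapped in PEP-619WW. In run 2, neutrophils were highest for 20 of 34 members in PEP-619WW (16.6% of all genes), 18 of them clear of the next class (9.03%). PEP-WT had only the myeloid classes to compare in run 2, so its order cannot be set against that of 6 classes. Among the 3 myeloid classes alone, monocytes were highest for 15 of 28 members in PEP-WT of run 1 (34.6% of all genes) and 17 of 34 in run 2 (23.2%). In PEP-619WW, monocytes were highest among them for 12 of 28 in run 1 (29.8%) and 7 of 33 in run 2 (24.7%). Neutrophils were highest among them for 6 of 28 (25.1%) and 12 of 34 (24.0%) in PEP-WT, run 1 first, and for 7 of 28 (21.2%) and 22 of 33 (32.0%) in PEP-619WW. *Hilpda* was highest in the neutrophils of run 2 in both genotypes, with monocytes next at 581 and 360 CPM and macrophages at 216 and 258 CPM.

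Between the genotypes, few members differed in run 1. Over the 6 classes together, 10 of 157 member and class pairs with 100 UMIs were higher in PEP-619WW and 4 lower, where 3.43% of all gene and class pairs were higher and 4.77% lower. The 10 were made up of *Vegfa* in 5 classes, *Hilpda* in 4 and *Ddit4* in 1, and 28 of the 34 members were past the fold in no class. Among these 28, *Pfkm*, *Adm*, *P4ha2*, *Car9* and *Egln3* had 100 UMIs in no class and so could not be called. No share of all genes past the fold in no class is given. Erythroid markers differed between the genotypes in every class of run 1, from 1476 to 3230 CPM in PEP-WT and from 103 to 1302 CPM in PEP-619WW. In PEP-619WW, platelet markers were lower in every class (neutrophils 187 and 43.8 CPM, PEP-WT first) and macrophage markers higher (macrophages 1720 and 2748 CPM). Neutrophil markers were higher in neutrophils (9627 and 16261 CPM), monocytes (5020 and 11473 CPM) and B barcodes, and lower in the other classes. The part of these markers in the ratios was not tested. By class, 2 of 27 members were higher in CD8 T barcodes (2.81% of all genes), 1 of 21 in CD4 T (4.57%), 1 of 29 in B (4.45%), 2 of 28 in macrophages (2.80%), 2 of 26 in monocytes (3.06%) and 2 of 26 in neutrophils (2.96%). Those lower were *Pgam1* in CD4 T barcodes (5.55% of all genes lower), *Ndrg1* in monocytes (6.09%), and *Ndrg1* and *P4ha1* in neutrophils (7.70%). In CD8 T, B and macrophage barcodes 0 members were lower, against 3.28%, 2.98% and 4.27% of all genes.

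*Hilpda* stood at 29.0 CPM (26.2 to 32.0) in PEP-WT and 44.6 CPM (41.0 to 48.5) in PEP-619WW among CD8 T barcodes of run 1, and at 26.3 (21.1 to 32.5) and 53.0 CPM (44.8 to 62.3) among CD4 T barcodes. In monocytes it stood at 15.4 and 38.0 CPM, and in neutrophils at 21.6 and 58.1 CPM. In B barcodes (16.3 and 21.1 CPM) and macrophages (24.2 and 33.3 CPM) PEP-619WW was above PEP-WT by less than the fold. The log2 ratio was largest in neutrophils (1.43, 1.12 to 1.74). With barcodes of 1 gate only, *Hilpda* stood closer between the genotypes in B (14.2 and 16.2 CPM) and macrophages (24.0 and 25.9 CPM). The log2 ratio was then 0.89 in CD8 T and 0.63 in CD4 T. In neutrophils it was 2.37 on 13 and 69 UMIs and in monocytes 0.22 on 25 and 19 UMIs, both under the minimum of 100, so neither was called. In run 1, 444 PEP-WT and 464 PEP-619WW barcodes met both the monocyte and the neutrophil gate, and in PEP-619WW the monocyte class held more neutrophil than monocyte marker UMIs.

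*Vegfa* in run 1 rested on few UMIs, between 4 and 96 in a class. It stood at 1.87 and 6.37 CPM in CD8 T, 1.60 and 4.46 CPM in B, 4.07 and 8.20 CPM in macrophages, 4.33 and 11.1 CPM in monocytes and 7.43 and 12.2 CPM in neutrophils, PEP-WT first. With barcodes of 1 gate only, every one of these 5 classes held under 100 *Vegfa* UMIs over both libraries, so none was called. The log2 ratio was then 1.18 in B and 0.96 in macrophages, went from 1.76 to 0.41 in CD8 T barcodes, and turned in monocytes (from 1.36 to -0.50) and neutrophils (from 0.72 to -1.54). CD4 T barcodes held under 100 *Vegfa* UMIs in either setting and were not called. There *Vegfa* stood at 1.21 and 16.5 CPM, a log2 ratio of 3.77, the largest of the 6 classes. With barcodes of 1 gate only it stood at 1.33 and 17.0 CPM in CD4 T, on 2 and 26 UMIs. *Ddit4* stood at 25.5 CPM (22.3 to 29.0) and 43.3 CPM (38.9 to 48.1) in macrophages. *Ndrg1* stood at 32.1 and 21.0 CPM in monocytes and at 26.3 and 14.4 CPM in neutrophils, and was lower in PEP-619WW in both. These abundant enzymes were close in macrophages: *Gapdh* stood at 1200 and 1120 CPM, *Aldoa* at 305 and 321 CPM and *Ldha* at 298 and 293 CPM. The transporter gene *Slc2a1* was low there, at 8.68 and 11.5 CPM. *Gpi1* stood at 285 and 427 CPM in neutrophils, just under the fold (log2 0.58). In monocytes it stood at 262 and 387 CPM, also under the fold.

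**Figure D3:**
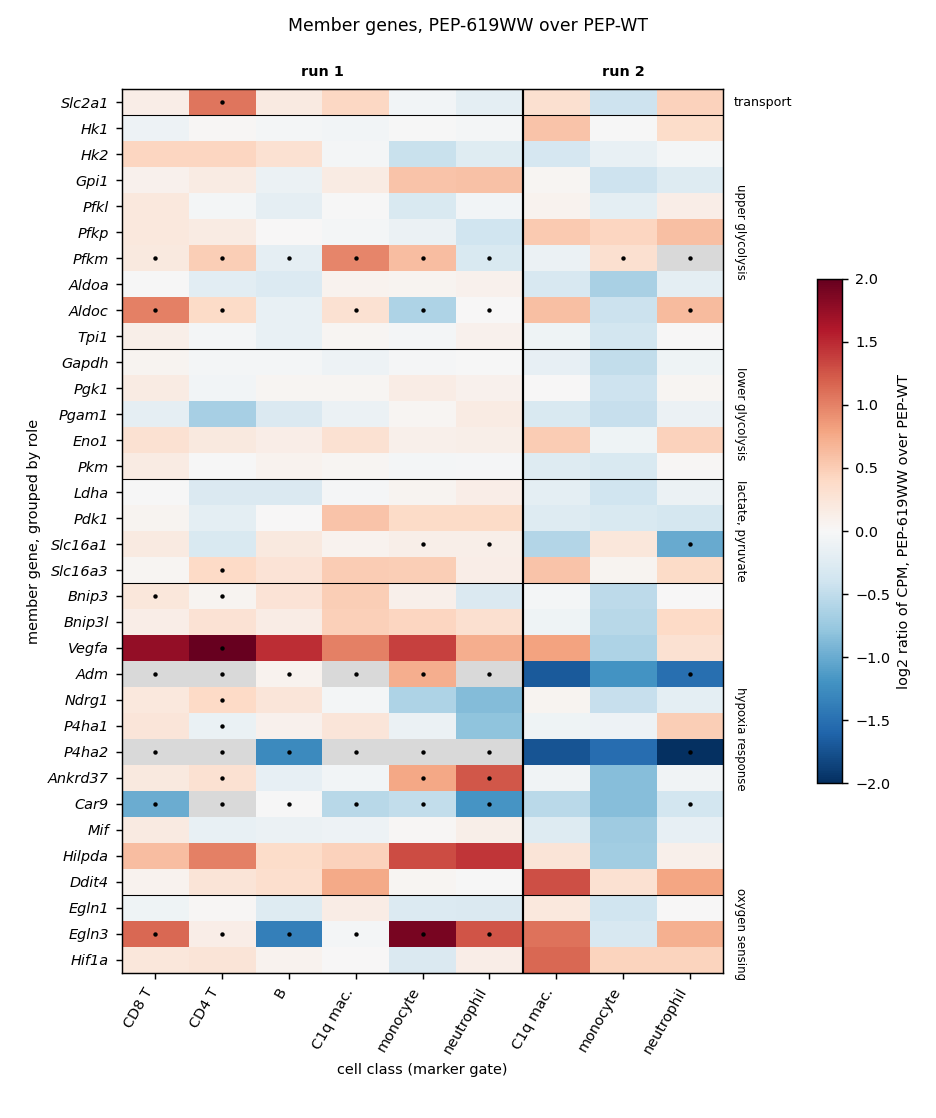
Log2 ratio of CPM, PEP-619WW over PEP-WT, for the 34 members (rows, grouped by role) in classes with at least 50 barcodes in both libraries (columns), with run 1 at the left and run 2 at the right. Red is higher in PEP-619WW, the color scale stops at 2, a dot marks under 100 UMIs and gray marks no ratio. In run 1 the rows of *Vegfa* and *Hilpda* are red in all 6 classes, and in run 2 both are blue in monocytes (-0.62 and -0.69).

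In run 2, 23 of 165 member and class pairs were higher in PEP-619WW and 25 lower, where 22.8% of all gene and class pairs were higher and 9.74% lower. Centred on the median gene of each class, the split was 16 higher and 45 lower, where 15.7% and 14.1% of all pairs were. Both splits include classes with 28, 12 and 2 PEP-WT barcodes. In the classes with at least 50 barcodes the uncentred split was 8 of 95 higher (22.1% of all pairs) and 10 lower (8.56%). No centred split is given for those classes alone. In C1q macrophages 5 of 34 members were higher in PEP-619WW (17.7% of all genes) and 2 lower (11.8%). In monocytes 0 of 33 were higher (23.8%) and 8 lower (4.52%). In neutrophils 3 of 28 were higher (27.5%) and 0 lower (8.98%). The median log2 ratio of the members was -0.05, -0.41 and 0.04 in these classes, and that of all genes 0.11, 0.25 and 0.25. With barcodes of 1 gate only, 6 of 34 members were higher in macrophages (16.0% of all genes) and 2 lower (12.3%). In monocytes it was 0 (21.4%) and 9 (4.61%) of 32, and in neutrophils 1 (30.4%) and 0 (3.60%) of 28.

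Among macrophages of run 2, *Hif1a* stood at 110 CPM (107 to 113) in PEP-WT and 243 CPM (235 to 251) in PEP-619WW, a log2 ratio of 1.15. *Egln3* stood at 26.0 and 55.3 CPM, *Ddit4* at 11.0 and 26.7 CPM, *Vegfa* at 40.0 and 70.1 CPM and *Aldoc* at 5.87 and 8.89 CPM. Lower in PEP-619WW were *Adm*, at 22.7 and 7.06 CPM, and *P4ha2*, at 15.6 and 4.73 CPM. *Ddit4* and *Vegfa* were thus past the fold in the macrophages of both runs, with log2 ratios of 0.77 and 1.01 in run 1 and 1.28 and 0.81 in run 2. Of all genes, 2.80% were higher in run 1 macrophages and 17.7% in those of run 2, and no share higher in both is given. *Vegfa* in run 1 macrophages held 10 and 20 UMIs with barcodes of 1 gate only, and was then not called. The runs were not taken as replicates. Monocyte markers in the macrophage class of run 2 were at 915 CPM in PEP-WT and 3679 CPM in PEP-619WW, and melanocyte markers at 134 and 22.9 CPM. Their part in these ratios was not tested.

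In monocytes of run 2, *Hilpda* stood at 581 CPM (558 to 604) in PEP-WT and 360 CPM (351 to 369) in PEP-619WW, *Vegfa* at 137 and 88.9 CPM, and *Ankrd37* at 151 and 83.9 CPM. *Mif* stood at 1224 and 746 CPM and *Aldoa* at 1236 and 793 CPM. *Adm*, *P4ha2* and *Car9* were low, from 7.36 to 14.7 CPM in PEP-WT and 4.08 to 6.43 CPM in PEP-619WW. Melanocyte markers in the monocyte class were at 340 CPM in PEP-WT and 13.3 CPM in PEP-619WW, and platelet markers at 3151 and 843 CPM. Macrophage markers in it were at 3243 and 2453 CPM and monocyte markers at 2974 and 5051 CPM. The part of these markers was not tested. In neutrophils, *Pfkp*, the platelet-type phosphofructokinase, stood at 223 and 338 CPM, *Egln3* at 151 and 248 CPM and *Ddit4* at 37.4 and 64.7 CPM. Macrophage markers in the neutrophil class stood at 4450 CPM in PEP-WT and 1741 CPM in PEP-619WW, and *C1qa* at 1472 and 268 CPM, and their part was not tested. With barcodes of 1 gate only, *Ddit4* and *Pfkp* were no longer past the fold in neutrophils (log2 0.29 and 0.50). In the lymphocyte classes, set against 28, 12 and 2 PEP-WT barcodes, 10 of 26 members were higher in CD8 T (19.6% of all genes) and 0 lower (8.98%), 4 of 28 higher and 4 lower in CD4 T (27.6% and 9.75%), and 1 of 16 higher and 11 lower in B barcodes (25.3% and 23.1%).

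Within the C1q macrophage gate of run 2, most members were higher in the barcodes that also held *Vegfa*. Macrophage barcodes with a *Vegfa* UMI were set against those without one, and *Vegfa* itself was left out. In PEP-WT, 1125 of 5839 barcodes had a *Vegfa* UMI, and 26 of 33 members were higher in them, where 6.36% of all genes were. In PEP-619WW, 439 of 1968 had one, and 29 of 31 members were higher (5.69% of all genes). In both, 0 were lower, against 13.7% and 11.6% of all genes. *Hilpda* stood at 562 CPM in barcodes with *Vegfa* and 121 CPM in those without in PEP-WT, and at 750 and 104 CPM in PEP-619WW. *Ddit4*, which was lower in run 2 than in run 1, stood at 31.8 and 5.29 CPM and at 62.2 and 15.6 CPM. *Slc2a1* stood at 273 and 74.2 CPM and at 363 and 77.3 CPM, and *Gapdh* at 3495 and 2242 CPM and at 3410 and 1861 CPM. *Pdk1*, *Car9* and *Pfkm* were past the fold in neither genotype. Median depth was 9428 UMIs with *Vegfa* and 7621.5 UMIs without in PEP-WT, and 6810 and 6905 UMIs in PEP-619WW. Cell type markers of the barcodes with and without *Vegfa* are not given. The part of mixed cell types within the gate in this split was not tested.

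The same split in run 1 gave 0 of 21 members higher in PEP-WT (3.88% of all genes) and 0 of 22 in PEP-619WW (6.08%), and 3 (21.8%) and 1 (12.6%) lower. It rested on 31 barcodes with *Vegfa* in each genotype, whose median depths of 25535 and 32926 UMIs were over those of the barcodes without it (9889 and 11822 UMIs). Depth and expression cannot be told apart in run 1.

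**Figure D4:**
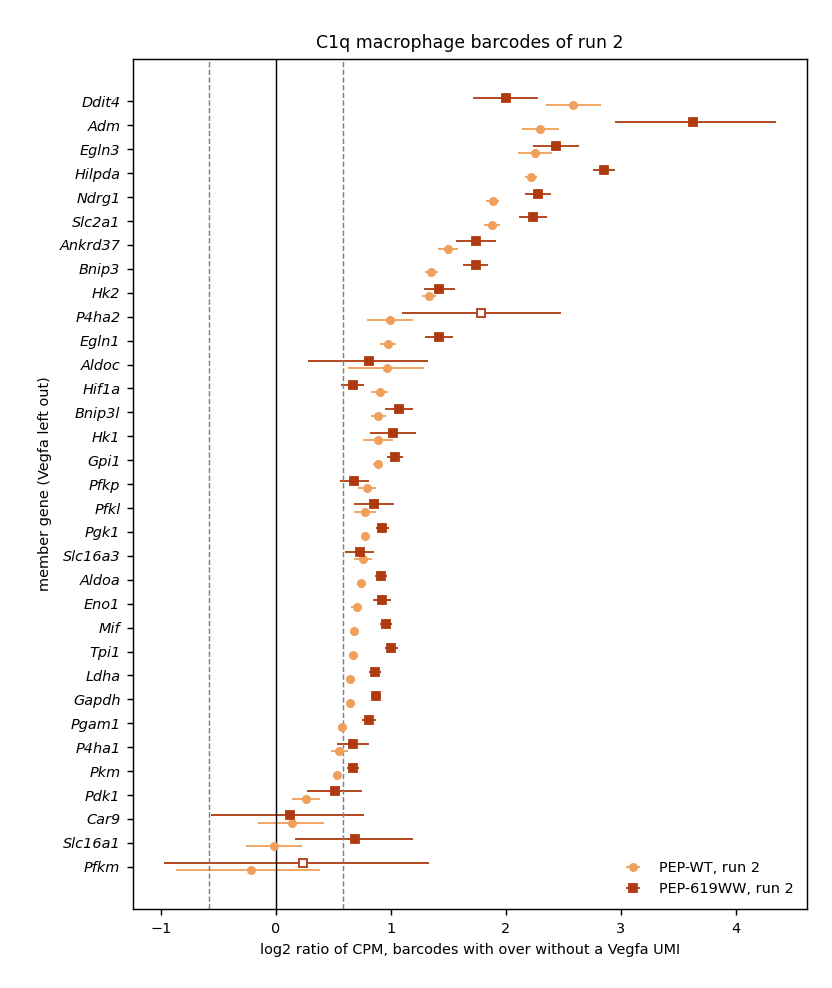
Log2 ratio of CPM between C1q macrophage barcodes of run 2 with and without a *Vegfa* UMI (x axis) for each other member (y axis), with exact 95% intervals that cover counting error only. Dashed lines mark 1.5-fold and open symbols mark under 100 UMIs. *Ddit4*, *Adm*, *Egln3* and *Hilpda* lie between 2.00 and 3.62 in both genotypes, and in PEP-619WW *Ndrg1* (2.28) and *Slc2a1* (2.23) lie to the right of *Ddit4*.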

How the data were processed

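Single-cell 3' libraries were analysed, which the study describes as made from sorted CD45+ spleen cells. Which of the runs that description covers was not settled. The deposited matrices hold counts of UMIs per gene and barcode, which the authors made with Cell Ranger 6.0.0 on mm10, per the submitters' notes, while the study's methods name a later release; other filters on barcodes are not given in the sources used here. All barcodes were kept, and doublets were not called. Classes were gated by marker UMIs: at least 5 of *C1qa* and *C1qb* for macrophages, 5 of *Lyz2* without *C1qa* for monocytes, 20 of *S100a8* and *S100a9* for neutrophils, and 1 each of *Cd3e* and *Cd8b1*, *Cd3e* and *Cd4*, or *Cd79a* and *Ms4a1* for CD8 T, CD4 T and B cells, so that a barcode may meet several gates. UMIs were summed per class and library and divided by the class total (CPM). Poisson and conditional binomial 95% intervals were exact. With 1 library per genotype and run no test was made, and runs were kept apart throughout. All 32285 genes entered the background shares. The members and lists were chosen with earlier results of these data known. By rule, each comparison names up to 8 members past the fold by size, and the member with the most UMIs of each role in macrophages; exceptions such as *Ddit4* in the promoter display, and the few further genes named, were chosen after their values were seen. *Aldoa* was taken under its main identifier, and reads shared by *Eno1* and its near copy *Eno1b* are uncertain. The code was tested on simulated data. Depth per library is given with the results. The software was matplotlib 3.10.9, pandas 2.3.3, scipy 1.17.1 and numpy 2.4.6 under Python 3.11.15. The closing section gives the effect of 11 alternatives, of which 1 was added after seeing the data.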

Additional observations from a re-analysis of the deposited data

Results flagged for a closer look

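In monocyte barcodes, 2 members stood on opposite sides of PEP-WT in the 2 runs. The log2 ratio of *Vegfa*, PEP-619WW over PEP-WT, was 1.36 in run 1 and -0.62 in run 2. That of *Hilpda* was 1.30 in run 1 and -0.69 in run 2. With 1 library per genotype and run, the difference between the runs was not tested. With barcodes of 1 gate only, the run 1 values were -0.50 for *Vegfa*, on 13 and 6 UMIs, and 0.22 for *Hilpda*, on 25 and 19 UMIs, and those of run 2 were -0.71 and -0.97.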

How the results depend on the processing

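Counts of member and class pairs past the fold depended on the settings as follows. Between the genotypes in run 1, the 10 higher of 157 became 5 with barcodes of exactly 1 gate, 18 with the mean of single barcodes, 5 at 200 UMIs and 21 with no filter, and the 4 lower became 9 with no filter and 0 at 2-fold. In run 2, the 23 higher of 165 became 14 with 1 gate, 15 at 200 UMIs, 6 at 2-fold and 8 of 95 in classes of at least 50 barcodes, an alternative chosen after seeing the data. The 25 lower became 45 when centred on the median gene, 14 at 2-fold and 10 in classes of at least 50 barcodes. Between the runs, the 133 of 164 higher in PEP-WT became 83 of 90 in classes of at least 50 barcodes, where fewer pairs are counted, and the 146 of 176 in PEP-619WW stayed between 121 and 166. The 1 lower in PEP-WT became 3 with 1 gate, 2 centred, 4 with the mean of barcodes and 3 with no filter. The 1 lower in PEP-619WW became 3 with 1 gate, 3 without ribosomal protein, mitochondrial, immunoglobulin and hemoglobin genes, 3 centred, 2 with the mean of barcodes, 3 at 50 UMIs, 5 with no filter and 0 at 2-fold.

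Of 2038 single values, 1492 stayed within the counting interval, 526 moved beyond it and 20 changed sign, and 118 were no longer past the fold, 42 of them with barcodes of 1 gate. With 1 gate, the genotype ratios in run 1 of *Vegfa* became -0.50 in monocytes and -1.54 in neutrophils, and that of *Ddit4* in CD8 T in run 2 became -0.081. The PEP-WT run ratios became -0.54 for *Ndrg1* and -0.66 for *Ankrd37* in CD8 T and -0.12 for *Hk1* in CD4 T. The PEP-619WW run ratios in B became -0.49 for *Hk2*, -0.084 for *Pgk1*, -0.075 for *Pgam1*, -0.32 for *Pkm*, -0.22 for *Ldha* and -0.51 for *Vegfa*. With the mean of barcodes, *Vegfa* in neutrophils of run 1 became -0.040 between the genotypes. In CD8 T of run 2, *Slc2a1* became -0.57, *Hk2* -0.58, *Pdk1* -0.28, *Ndrg1* -0.49, *Ankrd37* -0.46 and *Hif1a* -0.027. *Bnip3l* in B became -0.026 between the runs in PEP-WT. Apart from the settings themselves, the cause was not tested.

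No paired analysis was possible because each genotype has 1 library per run and the labels give no replicate numbers. Leaving out a replicate does not apply for the same reason. Intervals cover counting error only, and *Vegfa* in run 1 is limited by its few UMIs.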
